A study of Mus musculus with 10 samples.

Results

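Chemokine ligands were examined in splenic cDC2, the type 2 conventional dendritic cells, sorted from mice lacking Notch2 in CD11c-expressing cells and from WT mice. The members were every gene on the array named Ccl, Cxcl or Xcl followed by a number, together with Cx3cl1, Pf4 and Ppbp, which made 36 of the 19938 genes measured. Expression was read on 10 Affymetrix Mouse Gene 1.0 ST arrays in 4 groups. The groups were CD11c-Cre+ Notch2f/f mice given sheep red blood cells (Notch2-11cKO SRBC, n = 3), CD11c-Cre+ Notch2f/f mice at steady state (Notch2-11cKO untreated, n = 2), WT mice given the same cells (WT SRBC, n = 3) and WT mice at steady state (WT untreated, n = 2). The dose was 200000000 sheep red blood cells injected into the peritoneum, and spleens were taken after 24 hours. The Cre transgene is driven by the CD11c promoter, which is used by dendritic cells and also by some macrophages, and the labels give neither the age and sex of the mice nor the sorting gate.

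Chemokines are small secreted proteins that guide migrating leukocytes through G protein-coupled receptors. The names Ccl, Cxcl, Xcl and Cx3cl follow the spacing of conserved cysteines near the amino terminus. Dendritic cells use them to bring T cells, other dendritic cells and phagocytes into contact, and many chemokine genes lie side by side in genomic clusters that are switched on by NF-kB and interferon signalling. Notch2 is a receptor that splenic cDC2 need to complete their differentiation, and sheep red blood cells are a particulate antigen that activates cDC2 and starts a T-dependent antibody response.

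The 4 promoters printed here belong to chromosome 5 ligands and carry the NF-kB motif that was searched. They run from 250 bases before to 50 bases after the annotated start, are taken from RefSeq on GRCm38.p6, and are written 5′ to 3′ on the strand of the gene. Capitals mark the NF-kB match, with a second run of capitals in Cxcl10 marking an interferon element.
Cxcl1, chr5:90890995-90891294 (+): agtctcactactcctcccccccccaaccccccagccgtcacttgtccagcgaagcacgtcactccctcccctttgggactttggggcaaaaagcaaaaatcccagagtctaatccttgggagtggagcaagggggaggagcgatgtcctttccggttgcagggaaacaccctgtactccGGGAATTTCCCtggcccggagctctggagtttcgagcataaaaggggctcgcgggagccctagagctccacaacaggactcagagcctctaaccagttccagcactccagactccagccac
Cxcl2, chr5:90903649-90903948 (+): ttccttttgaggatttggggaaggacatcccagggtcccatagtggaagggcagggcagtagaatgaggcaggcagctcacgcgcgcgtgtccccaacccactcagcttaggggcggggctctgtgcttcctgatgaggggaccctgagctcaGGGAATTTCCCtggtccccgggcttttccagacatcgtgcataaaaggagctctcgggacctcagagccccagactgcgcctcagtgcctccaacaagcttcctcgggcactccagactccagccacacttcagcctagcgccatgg
Cxcl3, chr5:90785851-90786150 (+): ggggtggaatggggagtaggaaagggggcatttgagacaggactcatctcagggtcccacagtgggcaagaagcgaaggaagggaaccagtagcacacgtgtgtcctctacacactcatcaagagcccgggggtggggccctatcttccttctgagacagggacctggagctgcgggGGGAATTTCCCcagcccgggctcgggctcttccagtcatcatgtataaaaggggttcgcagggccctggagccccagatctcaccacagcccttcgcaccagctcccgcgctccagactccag
Cxcl10, chr5:92348840-92349139 (-): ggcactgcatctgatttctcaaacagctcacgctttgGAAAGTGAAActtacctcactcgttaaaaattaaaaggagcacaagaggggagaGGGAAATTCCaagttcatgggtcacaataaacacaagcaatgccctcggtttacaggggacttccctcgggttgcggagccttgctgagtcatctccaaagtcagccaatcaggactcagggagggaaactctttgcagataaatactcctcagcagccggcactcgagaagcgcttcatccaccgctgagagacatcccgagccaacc

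The motif GGGANNTTCC, searched on both strands, was in 5 of the 26 promoters found for 25 members, against 482 of all 32851 promoters in the table (1.47%). The members with a match were Ccl1, Cxcl1, Cxcl2, Cxcl3 and Cxcl10. In Cxcl1, Cxcl2 and Cxcl3 the match was the same 11-base run, GGGAATTTCCC, in which the matches on the 2 strands overlap. That run was in 14 of the 32851 promoters (0.0426%) and began 71 bases before the start in Cxcl1, 97 bases before it in Cxcl2 and 73 bases before it in Cxcl3. The interferon element GAAANNGAAA, added after the expression values had been seen, was in 3 of the 26 member promoters (Ccl19, Cxcl10 and Cxcl14) and in 3.44% of all promoters. Members past the threshold in at least 1 comparison held the NF-kB motif in 2 of 12 promoters and the other members in 3 of 14. A match is a match of letters and not a measured binding site.

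Values are log2 intensity, and 1 limma fit over all genes gave a log2 difference, its standard error (SE) and a Benjamini-Hochberg adjusted p, with a threshold of 0.05. Array medians lay between 29.508 and 31.678 on the linear scale, and no detection call was used, so no level is called above background. WT SRBC replicate 1 correlated at 0.971 with both other arrays of its group, which correlated at 0.990 with each other. Notch2-11cKO SRBC replicate 3 correlated at 0.978 and 0.975 with its group, whose other pair reached 0.988, and it held the highest value of the 10 arrays for 12 of the 36 ligands. These arrays stood apart, and ligand calls that changed without both of them are named with the result. Both arrays were picked from these same data, ligands included. Leaving out arrays far from their group narrows the shared estimate of spread. The adjusted p in that fit may thus be too small, and a call gained there is not independent support. The cDC2 markers Cd4, Clec4a4 and Esam were lower in untreated Notch2-11cKO than in untreated WT cells, while the other 7 of 10 listed cDC2 markers did not pass the test there. After SRBC 1 of the 10 was higher and 2 were lower in Notch2-11cKO cells. Notch2 signal itself did not pass (log2 difference 0.14 ± 0.26 SE untreated), whereas the Notch target Hes1 was lower untreated by a log2 difference of -2.60 ± 0.26 SE, had a difference of -0.09 ± 0.21 SE after SRBC (adjusted p = 0.892), and passed in the interaction (2.51 ± 0.33 SE, adjusted p = 0.0486). Dtx1, a further gene of the Notch pathway, was lower untreated (-2.41 ± 0.33 SE, adjusted p = 0.00122) and after SRBC (-1.09 ± 0.27 SE, adjusted p = 0.0403). The interaction of Dtx1 did not pass (1.33 ± 0.43 SE, adjusted p = 0.566). With SRBC, both genes were lower in WT cells, Hes1 by -2.09 ± 0.23 SE (adjusted p = 0.00108) and Dtx1 by -1.43 ± 0.30 SE (0.025). In Notch2-11cKO cells the responses were 0.42 ± 0.23 SE for Hes1 (adjusted p = 0.604) and -0.10 ± 0.30 SE for Dtx1 (0.949). Because cells were measured in bulk, a change in the share of a contaminating or variant cell type and a change in RNA per cell cannot be told apart.

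In untreated mice, the comparison asked what the cDC2 express without Notch2 before any immunisation. Of the 36 ligands 11 were higher in Notch2-11cKO than in WT cells, which is 30.6% of the members against 2.95% of all genes, or 5.11% of all genes in either direction. The number lower was 0 by limma, where 2.16% of all genes were lower, although 4 members were lower and 14 higher at an unadjusted p under 0.05. At that unadjusted level 2916 of all 19938 genes passed in either direction. The largest differences among the ligands were in Cxcl13 and Ccl6, 29.1-fold and 28.8-fold, followed by Cxcl2, Ccl22, Ccl9 and Ccl2 between 23.8-fold and 14.1-fold. Without the 2 arrays that stood apart, which belong to neither untreated group and bear here on the shared estimate of spread alone, 18 ligands passed. They were 14 higher and 4 lower (Ccl3, Ccl4, Ccl5 and Xcl1), beside 10% of all genes in either direction and 4.41% lower. The median log2 difference was 0.28 over the ligands and -0.02 over all genes.

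After sheep red blood cells, 14 of the 36 ligands were higher in Notch2-11cKO than in WT cells, which is 38.9% of the members against 3.36% of all genes, or 5.32% of all genes in either direction. By limma 0 were lower, where 1.96% of all genes were, with 1 lower and 17 higher at an unadjusted p under 0.05. At that unadjusted level 3478 of all 19938 genes passed in either direction. With the 2 arrays that stood apart left out, 16 ligands passed, 15 higher and 1 lower (Xcl1), beside 11.9% of all genes, with Ccl19 (0.58 ± 0.17 SE, adjusted p = 0.0441) and Xcl1 gained. The median log2 difference was 0.49 over the ligands and -0.02 over all genes. The genotype difference passed in both states for 10 ligands, in untreated mice but not after SRBC for Cxcl16, and after SRBC but not in untreated mice for Ccl7, Ccl8, Ccl12 and Cxcl1. The interaction, which tests whether those differences differ, is given further on.

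**Figure D1:**
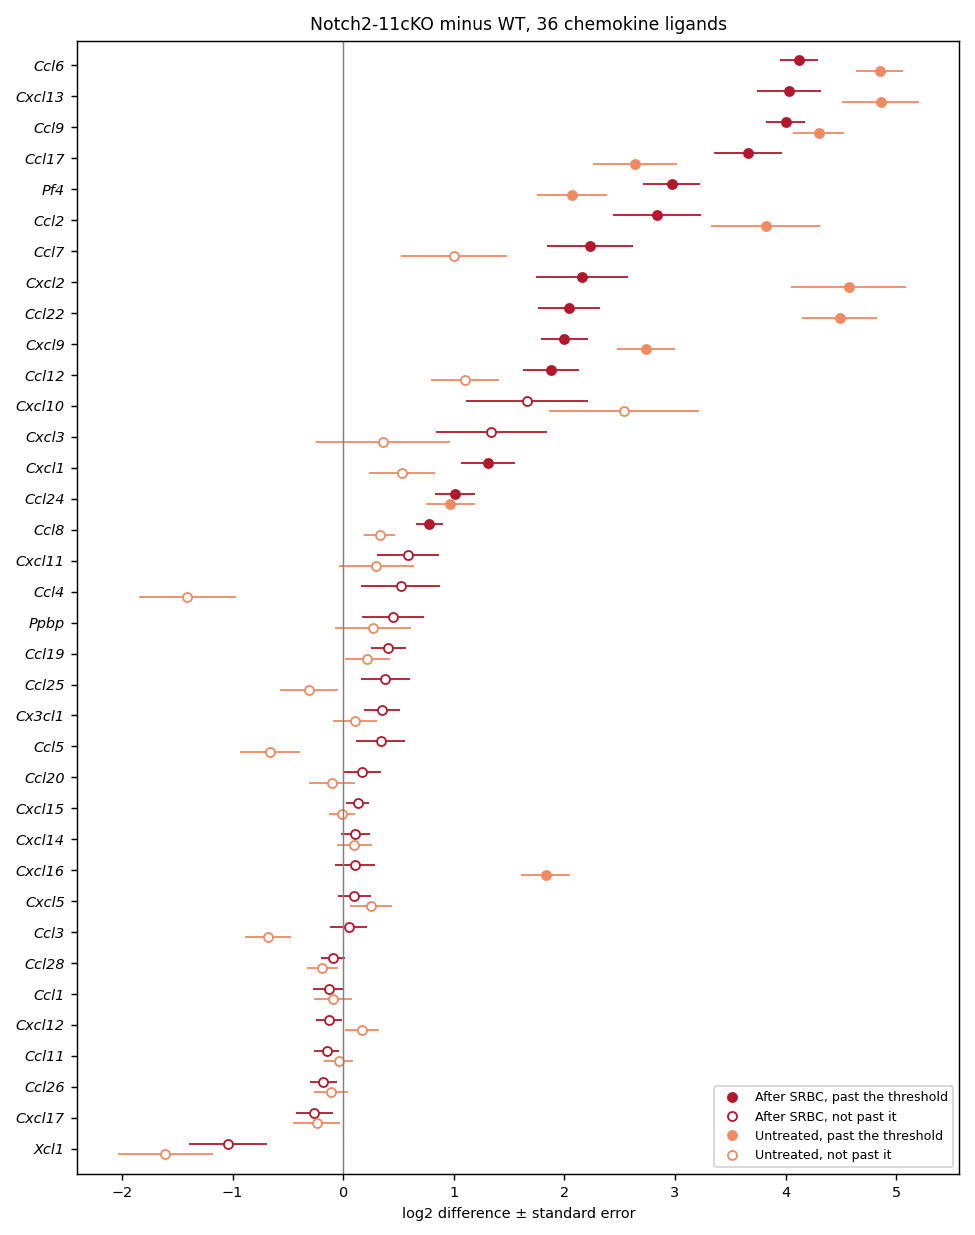
Genotype difference of the 36 chemokine ligands, as the log2 difference of Notch2-11cKO minus WT on the x axis with bars of 1 SE, after SRBC and in untreated mice; filled points pass an adjusted p of 0.05. All 14 filled points after SRBC and all 11 in untreated mice lie to the right of 0.

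Ccl22 and Ccl17, the ligands of CCR4 on T cells, were both higher in Notch2-11cKO cells. Ccl22 had 10.54, 10.02 and 11.05 in Notch2-11cKO SRBC, 10.02 and 10.14 in Notch2-11cKO untreated, 8.64, 8.41 and 8.42 in WT SRBC and 5.14 and 6.05 in WT untreated arrays. Every Notch2-11cKO array, treated or not, lay above every WT array, and WT SRBC lay between the untreated WT arrays and the Notch2-11cKO arrays. The log2 difference was 4.49 ± 0.34 SE untreated (adjusted p = 2.01e-05) and 2.04 ± 0.28 SE after SRBC (adjusted p = 0.00127). Ccl17 had 9.68, 9.78 and 9.0 in Notch2-11cKO SRBC, 6.96 and 8.29 in Notch2-11cKO untreated, 5.71, 5.87 and 5.89 in WT SRBC and 5.08 and 4.89 in WT untreated arrays. Its groups did not overlap in any of the 4 pairwise comparisons of genotype and treatment, and the log2 differences were 2.64 ± 0.38 SE untreated (adjusted p = 0.0016) and 3.66 ± 0.31 SE after SRBC (adjusted p = 5.04e-05).

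Ccl6 and Ccl9, mouse ligands of CCR1 made by myeloid cells, differed by genotype with little spread. Ccl6 had 10.97, 10.74 and 10.86 in Notch2-11cKO SRBC, 11.08 and 10.76 in Notch2-11cKO untreated, 6.79, 6.62 and 6.81 in WT SRBC and 5.89 and 6.26 in WT untreated arrays. Ccl9 had 10.94, 10.56 and 10.91 in Notch2-11cKO SRBC, 11.01 and 10.87 in Notch2-11cKO untreated, 6.77, 6.81 and 6.84 in WT SRBC and 6.36 and 6.93 in WT untreated arrays. For each gene the 5 Notch2-11cKO arrays were nearly level and sat far above the 5 WT arrays. The log2 differences were 4.85 ± 0.21 SE untreated and 4.12 ± 0.17 SE after SRBC for Ccl6 (adjusted p = 6.7e-07 and 4.29e-07). For Ccl9 they were 4.30 ± 0.23 SE untreated and 4.0 ± 0.18 SE after SRBC (adjusted p = 2.21e-06 and 7.29e-07).

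Ccl3, Ccl4 and Ccl5, which attract T cells and monocytes, did not pass in either genotype comparison. Ccl3 had 12.05 and 11.95 in Notch2-11cKO untreated against 12.63 and 12.74 in WT untreated arrays, a log2 difference of -0.68 ± 0.21 SE (adjusted p = 0.103). Ccl4 had 10.11 and 10.41 in Notch2-11cKO untreated against 11.73 and 11.61 in WT untreated arrays, a log2 difference of -1.41 ± 0.44 SE (adjusted p = 0.109). These 2 ligands thus lay below WT in untreated Notch2-11cKO cells on every array without reaching the threshold in the main fit. Ccl4 passed as lower with array weights (adjusted p = 0.0117) and with only the groups compared (0.000139). It also passed with the replicate number as a block (0.0461) and with the immediate-early covariate described further on (0.00651). Ccl3 passed as lower with quantile normalization (adjusted p = 0.0233), array weights (0.0278) and only the groups compared (0.000387). Ccl5 had an untreated log2 difference of -0.66 ± 0.27 SE (adjusted p = 0.281) and passed as lower with only the groups compared (0.00314). With the 2 arrays that stood apart left out, all 3 passed as lower untreated, Ccl3 at -0.68 ± 0.18 SE (adjusted p = 0.0358), Ccl4 at -1.41 ± 0.18 SE (0.000349) and Ccl5 at -0.66 ± 0.12 SE (0.00379). Ccl5 had 11.42, 11.48 and 12.37 in Notch2-11cKO SRBC, 10.79 and 10.78 in Notch2-11cKO untreated, 11.65, 11.23 and 11.37 in WT SRBC and 11.55 and 11.33 in WT untreated arrays. Its untreated Notch2-11cKO arrays were the lowest of the 10.

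Ccl2, Ccl7 and Ccl12 are ligands of CCR2, which monocytes need to enter the blood from bone marrow, Ccl12 being known from the mouse. Ccl2 had 9.23, 8.91 and 10.14 in Notch2-11cKO SRBC, 9.65 and 9.82 in Notch2-11cKO untreated, 5.67, 6.69 and 7.39 in WT SRBC and 5.78 and 6.06 in WT untreated arrays. Genotype separated the arrays completely, and the log2 difference was 3.82 ± 0.49 SE untreated (adjusted p = 0.000756) and 2.84 ± 0.40 SE after SRBC (adjusted p = 0.00152). Ccl7 had 7.43, 7.47 and 8.96 in Notch2-11cKO SRBC, 5.41 and 6.33 in Notch2-11cKO untreated, 5.42, 5.64 and 6.12 in WT SRBC and 4.65 and 5.08 in WT untreated arrays. Ccl12 had 5.12, 5.73 and 4.59 in Notch2-11cKO SRBC, 4.41 and 3.65 in Notch2-11cKO untreated, 3.31, 3.15 and 3.34 in WT SRBC and 2.89 and 2.97 in WT untreated arrays. Both were highest in Notch2-11cKO SRBC, and both passed after SRBC, with log2 differences of 2.23 ± 0.39 SE for Ccl7 (adjusted p = 0.00625) and 1.88 ± 0.25 SE for Ccl12 (adjusted p = 0.00116). Untreated, the values were 1.00 ± 0.48 SE for Ccl7 (adjusted p = 0.369) and 1.10 ± 0.31 SE for Ccl12 (adjusted p = 0.072). Both passed untreated without the 2 arrays that stood apart, at unmoved differences (adjusted p = 0.0419 for Ccl7 and 0.0122 for Ccl12).

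Ccl8, a CCR8 ligand in the mouse, had 4.17, 3.94 and 4.16 in Notch2-11cKO SRBC, 3.75 and 3.73 in Notch2-11cKO untreated, 3.40, 3.20 and 3.34 in WT SRBC and 3.23 and 3.59 in WT untreated arrays. All 3 treated Notch2-11cKO arrays were above the treated WT arrays by a small margin, a log2 difference of 0.78 ± 0.12 SE (1.72-fold, adjusted p = 0.00256). Ccl24, a CCR3 ligand that attracts eosinophils, had 6.14, 5.96 and 5.82 in Notch2-11cKO SRBC, 5.02 and 5.56 in Notch2-11cKO untreated, 5.13, 4.64 and 5.12 in WT SRBC and 4.37 and 4.27 in WT untreated arrays. Its log2 differences were 0.97 ± 0.22 SE untreated (adjusted p = 0.0262) and 1.01 ± 0.18 SE after SRBC (adjusted p = 0.00708). The untreated call for Ccl24 ended when WT untreated replicate 1, WT untreated replicate 2 or Notch2-11cKO untreated replicate 2 was left out (adjusted p = 0.129, 0.178 and 0.239).

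**Figure D2:**
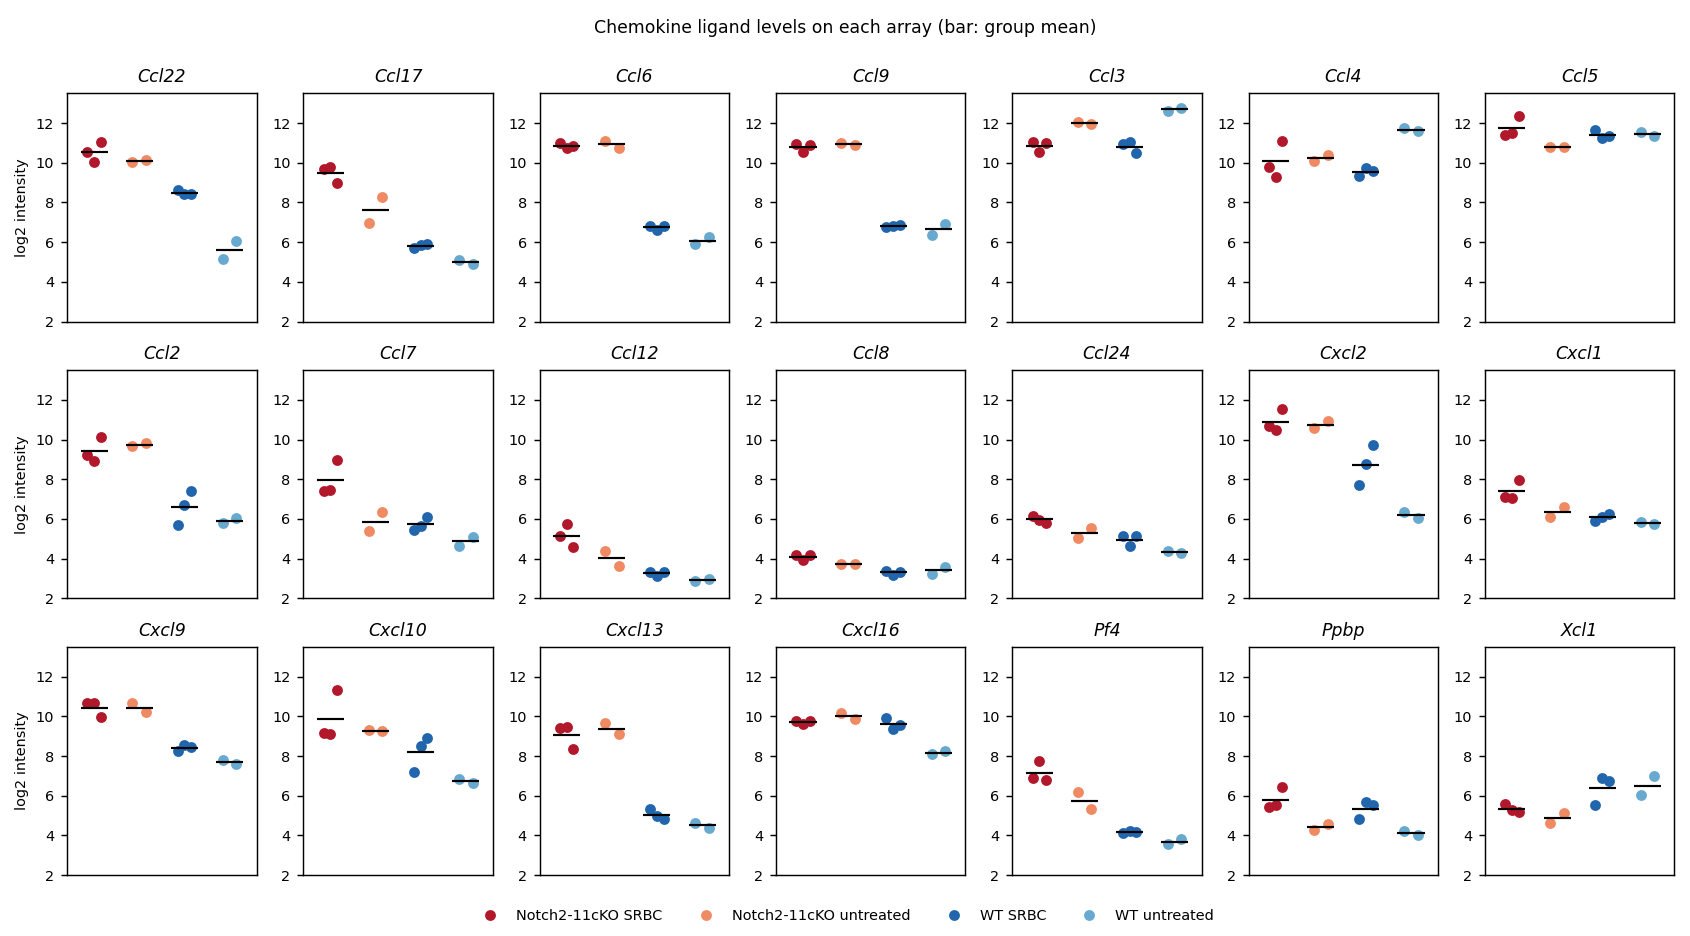
Log2 intensity of 21 chemokine ligands in each array, 1 panel a gene, with the groups from left to right Notch2-11cKO SRBC, Notch2-11cKO untreated, WT SRBC and WT untreated; points are arrays and bars are group means. The panels hold the 17 ligands past the threshold in at least 1 comparison and Ppbp, Ccl5, Cxcl10 and Xcl1; in Ccl6, Ccl9, Ccl2, Ccl22 and Cxcl13 all 5 Notch2-11cKO arrays lie above all 5 WT arrays.

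Among the CXCR2 ligands, which attract neutrophils, Cxcl2 was higher in Notch2-11cKO cells in both states. Cxcl2 had 10.67, 10.50 and 11.53 in Notch2-11cKO SRBC, 10.59 and 10.92 in Notch2-11cKO untreated, 7.71, 8.79 and 9.71 in WT SRBC and 6.33 and 6.04 in WT untreated arrays. The Notch2-11cKO arrays were high with or without treatment, and the WT SRBC arrays lay between the Notch2-11cKO and the untreated WT arrays with a wide spread. The log2 difference was 4.57 ± 0.52 SE untreated (adjusted p = 0.000326) and 2.16 ± 0.42 SE after SRBC (adjusted p = 0.0117). The value after SRBC was 1.34 ± 0.26 SE without the 2 arrays that stood apart (adjusted p = 0.00537). Cxcl1 had 7.13, 7.07 and 7.97 in Notch2-11cKO SRBC, 6.09 and 6.59 in Notch2-11cKO untreated, 5.89, 6.08 and 6.27 in WT SRBC and 5.86 and 5.75 in WT untreated arrays, and passed after SRBC (log2 difference 1.31 ± 0.24 SE, adjusted p = 0.00906). Cxcl3 had 4.65, 4.78 and 7.13 in Notch2-11cKO SRBC against 3.99, 4.15 and 4.38 in WT SRBC arrays, so that 1 array, Notch2-11cKO SRBC replicate 3, carried most of its log2 difference of 1.34 ± 0.50 SE (adjusted p = 0.173), which was 0.45 ± 0.16 SE without the 2 arrays that stood apart (adjusted p = 0.108). With all arrays, Cxcl3 passed with the replicate number as a block (adjusted p = 0.0411) and with the immediate-early covariate described further on (0.00176). The promoters of Cxcl1, Cxcl2 and Cxcl3 share the 11-base run printed above. In that order, their genotype log2 differences were 0.53, 4.57 and 0.36 untreated and 1.31, 2.16 and 1.34 after SRBC. A link between the run and these values was not tested. Cxcl5, a further ligand of CXCR2, stayed between 3.15 and 3.70 on all arrays.

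Of the CXCR3 ligands, which attract activated T cells and are induced by interferon-gamma, Cxcl9 differed by genotype. Cxcl9 had 10.66, 10.65 and 9.97 in Notch2-11cKO SRBC, 10.67 and 10.21 in Notch2-11cKO untreated, 8.26, 8.56 and 8.45 in WT SRBC and 7.79 and 7.60 in WT untreated arrays. No Notch2-11cKO array overlapped a WT array, with log2 differences of 2.74 ± 0.26 SE untreated (adjusted p = 0.000119) and 2.00 ± 0.21 SE after SRBC (adjusted p = 0.000252). Cxcl10 had 9.16, 9.11 and 11.33 in Notch2-11cKO SRBC, 9.30 and 9.26 in Notch2-11cKO untreated, 7.2, 8.51 and 8.90 in WT SRBC and 6.85 and 6.63 in WT untreated arrays. Its arrays also separated by genotype, but the spread within the treated groups was wide and the log2 differences of 2.54 ± 0.68 SE untreated (adjusted p = 0.0564) and 1.66 ± 0.55 SE after SRBC (adjusted p = 0.124) did not pass. Without the 2 arrays that stood apart, Cxcl10 passed untreated (2.54 ± 0.17 SE, adjusted p = 3.14e-06) and its value after SRBC was 0.43 ± 0.17 SE (adjusted p = 0.149). The untreated difference also passed with array weights (adjusted p = 0.00368), with only the groups compared (4.43e-05), with the replicate number as a block (0.00327) and with the immediate-early covariate described further on (0.000271). With all arrays, the difference after SRBC passed with that block (1.66 ± 0.32 SE, adjusted p = 0.0117) and with that covariate (2.31 ± 0.24 SE, 0.000113). Cxcl11, which RefSeq annotates on GRCm38.p6 as a transcribed pseudogene, ranged from 3.87 to 5.70 and passed in no comparison of the main fit. With that covariate it passed as higher in Notch2-11cKO cells after SRBC (0.91 ± 0.15 SE, adjusted p = 0.00343).

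Cxcl13, the CXCR5 ligand that draws B cells and follicular helper T cells into follicles, had 9.42, 9.45 and 8.36 in Notch2-11cKO SRBC, 9.66 and 9.09 in Notch2-11cKO untreated, 5.33, 4.96 and 4.84 in WT SRBC and 4.63 and 4.40 in WT untreated arrays. The gap between the lowest Notch2-11cKO and the highest WT array exceeded the spread within any group, and the log2 differences were 4.86 ± 0.35 SE untreated (adjusted p = 1.59e-05) and 4.03 ± 0.29 SE after SRBC (adjusted p = 1.94e-05). Cxcl16, a transmembrane ligand of CXCR6 that also acts as a scavenger receptor, had 9.79, 9.62 and 9.75 in Notch2-11cKO SRBC, 10.17 and 9.85 in Notch2-11cKO untreated, 9.92, 9.35 and 9.55 in WT SRBC and 8.10 and 8.25 in WT untreated arrays. Only the untreated WT arrays were low, with a log2 difference of 1.83 ± 0.22 SE between untreated genotypes (adjusted p = 0.000436) and 0.11 ± 0.18 SE after SRBC (adjusted p = 0.82). Xcl1, the ligand of XCR1 on cDC1, had 5.59, 5.29 and 5.16 in Notch2-11cKO SRBC, 4.65 and 5.14 in Notch2-11cKO untreated, 5.51, 6.91 and 6.74 in WT SRBC and 6.03 and 6.98 in WT untreated arrays. The genotypes overlapped after SRBC but not untreated, and the log2 differences were -1.61 ± 0.43 SE untreated (adjusted p = 0.0568) and -1.04 ± 0.35 SE after SRBC (adjusted p = 0.13). Xcl1 was lower in both states without the 2 arrays that stood apart, with log2 differences of -1.61 ± 0.28 SE untreated (adjusted p = 0.00282) and -1.38 ± 0.28 SE after SRBC (adjusted p = 0.00716). Untreated, Xcl1 also passed as lower among genes above the median level (adjusted p = 0.0417) and with array weights (0.00757). The same held with only the groups compared (0.012), the replicate block (0.0239) and the immediate-early covariate described further on (0.0317). After SRBC it passed with array weights (adjusted p = 0.0298).

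Pf4 and Ppbp are stored in platelet granules, and Pf4 is also made by some macrophages. Pf4 had 6.89, 7.73 and 6.80 in Notch2-11cKO SRBC, 6.19 and 5.31 in Notch2-11cKO untreated, 4.11, 4.22 and 4.18 in WT SRBC and 3.56 and 3.81 in WT untreated arrays. All Notch2-11cKO arrays were above all WT arrays, and the log2 differences were 2.07 ± 0.32 SE untreated (adjusted p = 0.00273) and 2.97 ± 0.26 SE after SRBC (adjusted p = 6.24e-05). Ppbp had 5.44, 5.54 and 6.44 in Notch2-11cKO SRBC, 4.25 and 4.56 in Notch2-11cKO untreated, 4.82, 5.69 and 5.55 in WT SRBC and 4.24 and 4.03 in WT untreated arrays, so that every SRBC array was above every untreated array. Of 10 listed platelet markers 6 were measured and 0 passed in either genotype comparison, and their summed intensity was 215 to 235 in Notch2-11cKO SRBC, 194 to 199 in Notch2-11cKO untreated, 243 to 266 in WT SRBC and 207 to 215 in WT untreated arrays.

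Markers of macrophages and monocytes moved with the genotype beside these ligands. Of 12 macrophage markers, 6 were higher in Notch2-11cKO cells untreated (C1qa, C1qb, C1qc, Vcam1, Mertk and Mrc1) and 7 after SRBC, with Siglec1 added. Their summed intensity was 3241 to 3773 in Notch2-11cKO SRBC, 2663 to 3352 in Notch2-11cKO untreated, 1516 to 2213 in WT SRBC and 826 to 889 in WT untreated arrays. Of 10 monocyte markers 8 were measured, and Ccr2, Csf1r, Lyz2 and Cx3cr1 were higher in Notch2-11cKO cells in both states while Treml4 was lower in untreated ones. The monocyte sums were 8817 to 11024 in Notch2-11cKO SRBC, 11720 to 13108 in Notch2-11cKO untreated, 2660 to 4262 in WT SRBC and 5738 to 5956 in WT untreated arrays. Nr4a1, also on the immediate-early list described further on, was the brightest of these markers on every WT array. It had 11.24, 10.33 and 10.12 in WT SRBC and 12.03 and 12.04 in WT untreated arrays. Ccr2, Csf1r and Lyz2 did not pass between WT SRBC and WT untreated cells. Of 8 cDC1 and 7 measured plasmacytoid dendritic cell markers, 3 and 2 were higher in untreated Notch2-11cKO cells, among them Naaa and Cox6a2. After SRBC 3 of the cDC1 markers were higher and 1 lower, and 3 of the plasmacytoid markers were higher. Of 11 neutrophil markers Csf3r was higher untreated (log2 difference 1.03 ± 0.19 SE, adjusted p = 0.00841) and Csf3r and S100a8 were higher after SRBC, with sums of 515 to 1160 in Notch2-11cKO SRBC, 255 to 475 in Notch2-11cKO untreated, 381 to 496 in WT SRBC and 216 to 233 in WT untreated arrays. The part of these cell types in the ligand differences was not tested. Of the 10 stromal markers 0 passed in either genotype comparison by limma, and their sums lay between 237 and 277 on all arrays.

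In WT cells, the comparison of treated with untreated mice asked which ligands respond to the antigen within 24 hours. Ccl22, Cxcl2 and Cxcl16 were higher and Ccl3 and Ccl4 lower in WT SRBC than in WT untreated cells. The 3 higher ligands were 8.33% of the members against 1.82% of all genes, and the 2 lower ones 5.56% against 1.97%, with 3.79% of all genes past the threshold in either direction. The median log2 difference was 0.25 over the ligands and 0.02 over all genes. Ccl22 rose by a log2 difference of 2.89 ± 0.31 SE (7.44-fold, adjusted p = 0.000882), Cxcl2 by 2.55 ± 0.47 SE (5.85-fold, adjusted p = 0.0132) and Cxcl16 by 1.43 ± 0.20 SE (2.69-fold, adjusted p = 0.00306).

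Ccl3 had 10.94, 11.02 and 10.48 in WT SRBC against 12.63 and 12.74 in WT untreated arrays, a log2 difference of -1.87 ± 0.19 SE (adjusted p = 0.0006). Ccl4 had 9.34, 9.71 and 9.58 in WT SRBC against 11.73 and 11.61 in WT untreated arrays, a log2 difference of -2.13 ± 0.40 SE (adjusted p = 0.0142). Neither gene's groups overlapped. Leaving out WT untreated replicate 1 ended the calls for Ccl4 (adjusted p = 0.159), Cxcl2 (0.114) and Cxcl16 (0.0719), and leaving out WT untreated replicate 2 ended those for Ccl4 (0.111) and Cxcl2 (0.133).

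Markers of other cells also moved with SRBC in WT cells: the macrophage genes C1qc, Vcam1 and Spic, the neutrophil gene S100a8 and the platelet gene Clec1b were higher, as were the cDC1 genes Xcr1 and Cd8a and Car2 of the erythroid list, while the cDC2 genes Itgam and Cd4 and the endothelial gene Pecam1 were lower. S100a8 was also higher in Notch2-11cKO cells. Their part in the responses was not tested. Genes of the immediate-early response, which cells also induce during tissue digestion, moved with this comparison. Of 21 measured, 6 were lower in WT SRBC than in WT untreated cells (Egr1, Egr2, Ier2, Dusp1, Hspa1a and Dnajb1), and the summed intensity was 13400 to 20465 in WT SRBC and 34824 to 36236 in WT untreated arrays. In Notch2-11cKO cells the sums were 12079 to 23088 with SRBC and 32315 to 32353 untreated, with Ier2, Zfp36 and Dnajb1 lower. With the mean of that list as a covariate, Ccl3 and Ccl4 still passed in WT cells, while Ccl22 (adjusted p = 0.0807), Cxcl16 (0.0519) and Cxcl2 (0.668) did not, Cxcl2 having a log2 difference of 0.68 in that fit. The list mean was 9.875 to 10.064 on the untreated arrays and 8.37 to 9.369 on the SRBC arrays of both genotypes. Because it followed treatment without overlap, calls kept or lost in that fit cannot tell a response to SRBC from a shift of that list. Without the 2 arrays that stood apart, 11 ligands passed in WT cells, 9 higher and 2 lower, beside 11.5% of all genes in either direction, with Cxcl10 (log2 difference 1.96 ± 0.17 SE, adjusted p = 3.74e-05) and Ppbp (1.49 ± 0.16 SE, adjusted p = 0.000121) gained beside Ccl2, Ccl6, Ccl7 and Cxcl9. With all arrays Cxcl10 had 1.46 ± 0.62 SE (adjusted p = 0.252) and Ppbp 1.22 ± 0.31 SE (0.0539). Leaving the 2 arrays out moved Ccl2 from 0.67 to 1.12, Ccl6 from 0.67 to 0.64, Ccl7 from 0.86 to 1.01 and Cxcl9 from 0.72 to 0.81.

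**Figure D3:**
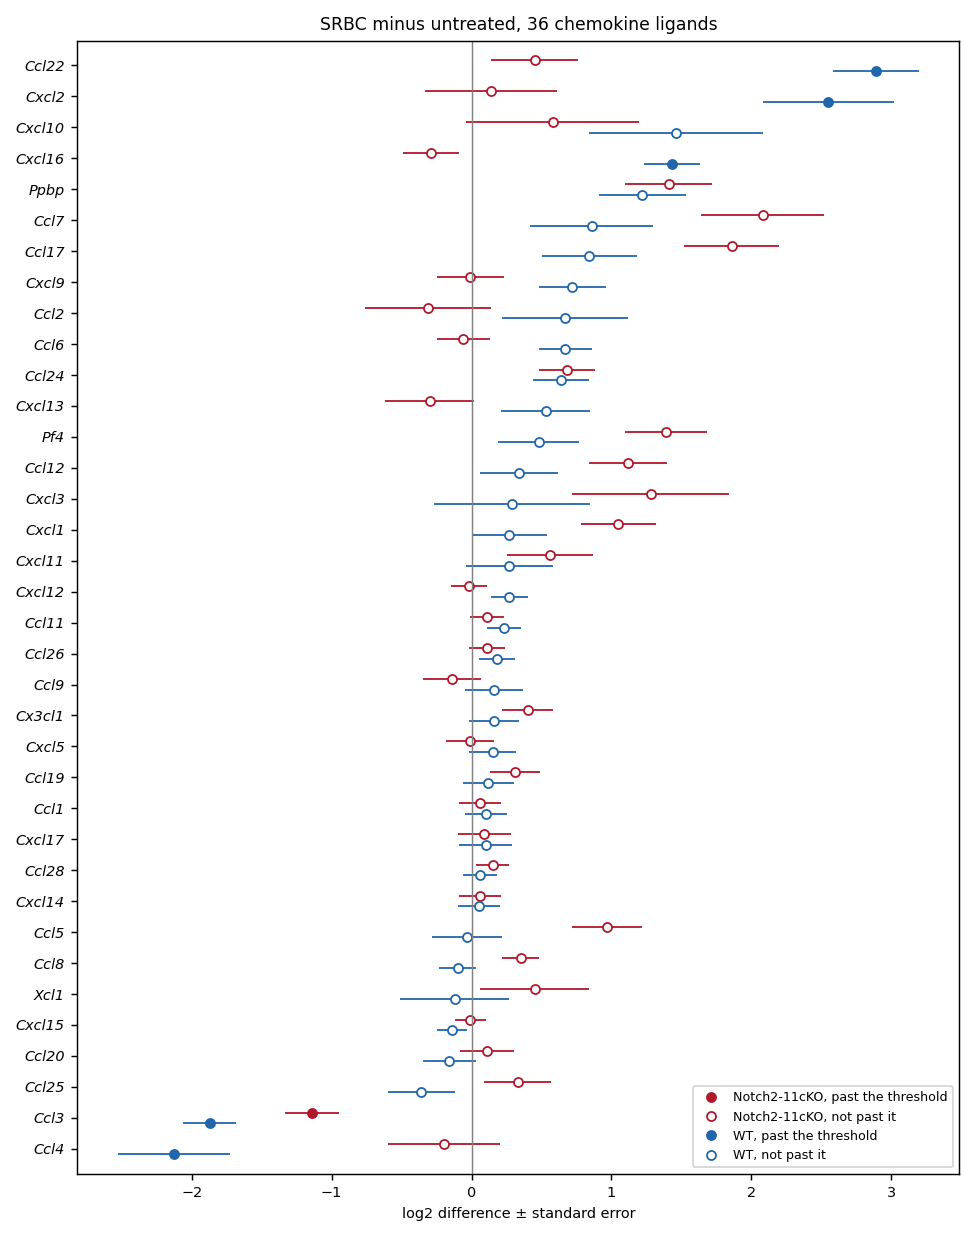
Response to SRBC of the 36 chemokine ligands, as the log2 difference of SRBC minus untreated on the x axis with bars of 1 SE, in Notch2-11cKO and in WT cells; filled points pass an adjusted p of 0.05. In WT cells Ccl22, Cxcl2 and Cxcl16 are filled to the right of 0 and Ccl3 and Ccl4 to the left, and in Notch2-11cKO cells Ccl3 alone is filled.

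In Notch2-11cKO cells, Ccl3 was the 1 ligand past the threshold and was lower after SRBC, 2.78% of the members against 0.166% of all genes. The number higher was 0 by limma, where 0.14% of all genes were, although 11 were higher and 1 lower at an unadjusted p under 0.05. At that unadjusted level 1994 of all 19938 genes passed in either direction. Ccl3 had 11.03, 10.56 and 11.00 in Notch2-11cKO SRBC against 12.05 and 11.95 in Notch2-11cKO untreated arrays, a log2 difference of -1.14 ± 0.19 SE (adjusted p = 0.0386). That call was lost in 12 of 24 alternatives, with adjusted p between 0.0512 and 0.361, and among them without Notch2-11cKO untreated replicate 1 (0.361) or replicate 2 (0.2), Notch2-11cKO SRBC replicate 1 (0.0664) or replicate 2 (0.0817), WT untreated replicate 1 (0.0927) or replicate 2 (0.0932), and WT SRBC replicate 2 (0.0512).

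The ligands next in order were higher after SRBC without passing. Ccl17 had a log2 difference of 1.86 ± 0.34 SE (adjusted p = 0.0567), Ccl7 of 2.08 ± 0.44 SE (0.0863), Pf4 of 1.39 ± 0.29 SE (0.0878) and Ppbp of 1.41 ± 0.31 SE (0.0983). In each of these genes every Notch2-11cKO SRBC array was above both Notch2-11cKO untreated arrays. Without the 2 arrays that stood apart, 7 ligands passed beside 2.0% of all genes, with Ccl17 at 2.10 ± 0.32 SE (adjusted p = 0.00987), Ccl7 at 1.58 ± 0.28 SE (0.0177), Pf4 at 1.56 ± 0.30 SE (0.0242), Ppbp at 1.09 ± 0.16 SE (0.00791), Ccl12 at 1.39 ± 0.24 SE (0.0166) and Ccl5 at 0.67 ± 0.12 SE (0.0187) joining Ccl3. The responses and the genotype differences are drawn from the same 10 arrays and share them.

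Whether the 2 genotypes respond differently was tested by the interaction, the Notch2-11cKO response minus the WT response. By limma 0 of 36 ligands passed, where 0.0201% of all genes did (0.01% above 0 and 0.01% below), and 8 had an unadjusted p under 0.05, 4 of them above 0 and 4 below. At that unadjusted level 1289 of all 19938 genes passed in either direction. Ccl22 had an interaction of -2.44 ± 0.44 SE and Cxcl16 of -1.72 ± 0.28 SE (adjusted p = 0.146 for each). Cxcl2 had -2.41 ± 0.67 SE (adjusted p = 0.412) and Ccl4 had 1.93 ± 0.56 SE (adjusted p = 0.471). The responses themselves were 0.45 ± 0.31 SE in Notch2-11cKO and 2.89 ± 0.31 SE in WT cells for Ccl22, and -0.29 ± 0.20 SE in Notch2-11cKO and 1.43 ± 0.20 SE in WT cells for Cxcl16.

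The count rested on the arrays that stood apart. Without WT SRBC replicate 1, Cxcl16 (-1.56, adjusted p = 0.0386) and Cxcl2 (-2.92, adjusted p = 0.0472) passed. Without that array and Notch2-11cKO SRBC replicate 3, 7 ligands passed, beside 3.03% of all genes. Of these Ccl2 (-1.79 ± 0.32 SE), Ccl22 (-2.62 ± 0.37 SE), Cxcl2 (-3.24 ± 0.36 SE), Cxcl10 (-2.11 ± 0.24 SE) and Cxcl16 (-1.58 ± 0.23 SE) were below 0, and Ccl4 (1.31 ± 0.25 SE) and Ccl5 (0.81 ± 0.17 SE) above it, with adjusted p from 0.00134 to 0.0264. With all arrays Ccl2 had -0.97 ± 0.63 SE, Cxcl10 -0.88 ± 0.87 SE and Ccl5 1.0 ± 0.35 SE (adjusted p = 0.896, 0.964 and 0.613).

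The receptors of these ligands were measured on the same arrays, 17 conventional and 5 atypical ones. Ccr2, the monocyte receptor for Ccl2, Ccl7 and Ccl12, had 10.06, 9.84 and 9.32 in Notch2-11cKO SRBC, 10.72 and 10.60 in Notch2-11cKO untreated, 6.03, 4.79 and 5.52 in WT SRBC and 5.81 and 5.77 in WT untreated arrays. Ccr1, a receptor for Ccl3, Ccl6 and Ccl9, had 6.99, 6.53 and 6.95 in Notch2-11cKO SRBC, 6.70 and 6.01 in Notch2-11cKO untreated, 3.38, 3.76 and 4.20 in WT SRBC and 3.14 and 3.10 in WT untreated arrays. Both were higher in every Notch2-11cKO array, with log2 differences of 4.87 ± 0.35 SE for Ccr2 and 3.23 ± 0.28 SE for Ccr1 in untreated mice (adjusted p = 1.59e-05 and 6.16e-05) and of 4.29 ± 0.29 SE and 3.05 ± 0.23 SE after SRBC (adjusted p = 1.26e-05 and 2.42e-05).

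Cx3cr1, the receptor of Cx3cl1, was higher as well, by log2 differences of 3.12 ± 0.47 SE untreated (adjusted p = 0.0024) and 2.09 ± 0.39 SE after SRBC (adjusted p = 0.00891). Ccr6, the receptor of Ccl20, was lower by log2 differences of -1.43 ± 0.19 SE untreated (adjusted p = 0.000921) and -1.55 ± 0.15 SE after SRBC (adjusted p = 0.000141). Cx3cl1 itself ranged from 4.78 to 5.64 and Ccl20 from 4.53 to 5.30 over all arrays, and neither passed in any comparison. The atypical receptor Ccrl2 was higher after SRBC by 1.57 ± 0.36 SE (adjusted p = 0.0282).

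Cxcr5, the receptor of Cxcl13, had 3.87, 4.47 and 4.26 in Notch2-11cKO SRBC, 3.21 and 2.85 in Notch2-11cKO untreated, 5.63, 5.61 and 6.17 in WT SRBC and 2.94 and 2.81 in WT untreated arrays. It rose with SRBC in both genotypes, by 1.17 ± 0.21 SE in Notch2-11cKO (adjusted p = 0.0483) and 2.93 ± 0.21 SE in WT cells (adjusted p = 7.39e-05). After SRBC it was lower in Notch2-11cKO than in WT cells by a log2 difference of -1.60 ± 0.19 SE (adjusted p = 0.000475), where its ligand Cxcl13 was higher. Its interaction was -1.75 ± 0.30 SE (adjusted p = 0.146). Ccr7, the receptor that brings dendritic cells to T cell zones, rose with SRBC in WT cells by 1.79 ± 0.24 SE (adjusted p = 0.00271), and had 1.14 ± 0.24 SE in Notch2-11cKO cells (adjusted p = 0.0895). Xcr1, the cDC1 receptor of Xcl1, also rose in WT cells, by 1.09 ± 0.22 SE (adjusted p = 0.023). Ccr4, Ccr8 and Cxcr2 passed in no comparison, nor did Cxcr3 and Cxcr6.

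The ligands lie in genomic neighbourhoods, and 26 of the 36 fell into 6 groups in which adjacent members were at most 100000 bases apart. On chromosome 8 the order was Ccl22, Cx3cl1 and Ccl17, and the genotype differences in untreated mice were 4.49, 0.11 and 2.64, so that the 2 CCR4 ligands differed and the gene between them did not pass. On chromosome 11 the order Ccl5, Ccl9, Ccl6, Ccl3 and Ccl4 had Ccl9 and Ccl6 past the threshold in both states and the 3 others in neither. The annotated spans of Ccl3 and Ccl4 overlap, so their signals may not be wholly separate.

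The other chromosome 11 group, Ccl2, Ccl7, Ccl11, Ccl12, Ccl8 and Ccl1, had 4 of 6 genes past the threshold after SRBC and 1 in untreated mice. On chromosome 5, the run Cxcl5, Ppbp, Pf4, Cxcl3, Cxcl15, Cxcl1 and Cxcl2 had 3 of 7 past it after SRBC and 2 in untreated mice. Within this run the untreated genotype difference was 2.07 for Pf4 and 4.57 for Cxcl2, and 0.25 for Cxcl5 and -0.01 for Cxcl15. Of Cxcl9, Cxcl10 and Cxcl11 only Cxcl9 passed in a genotype comparison, and of Ccl26 and Ccl24 only Ccl24.

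**Figure D4:**
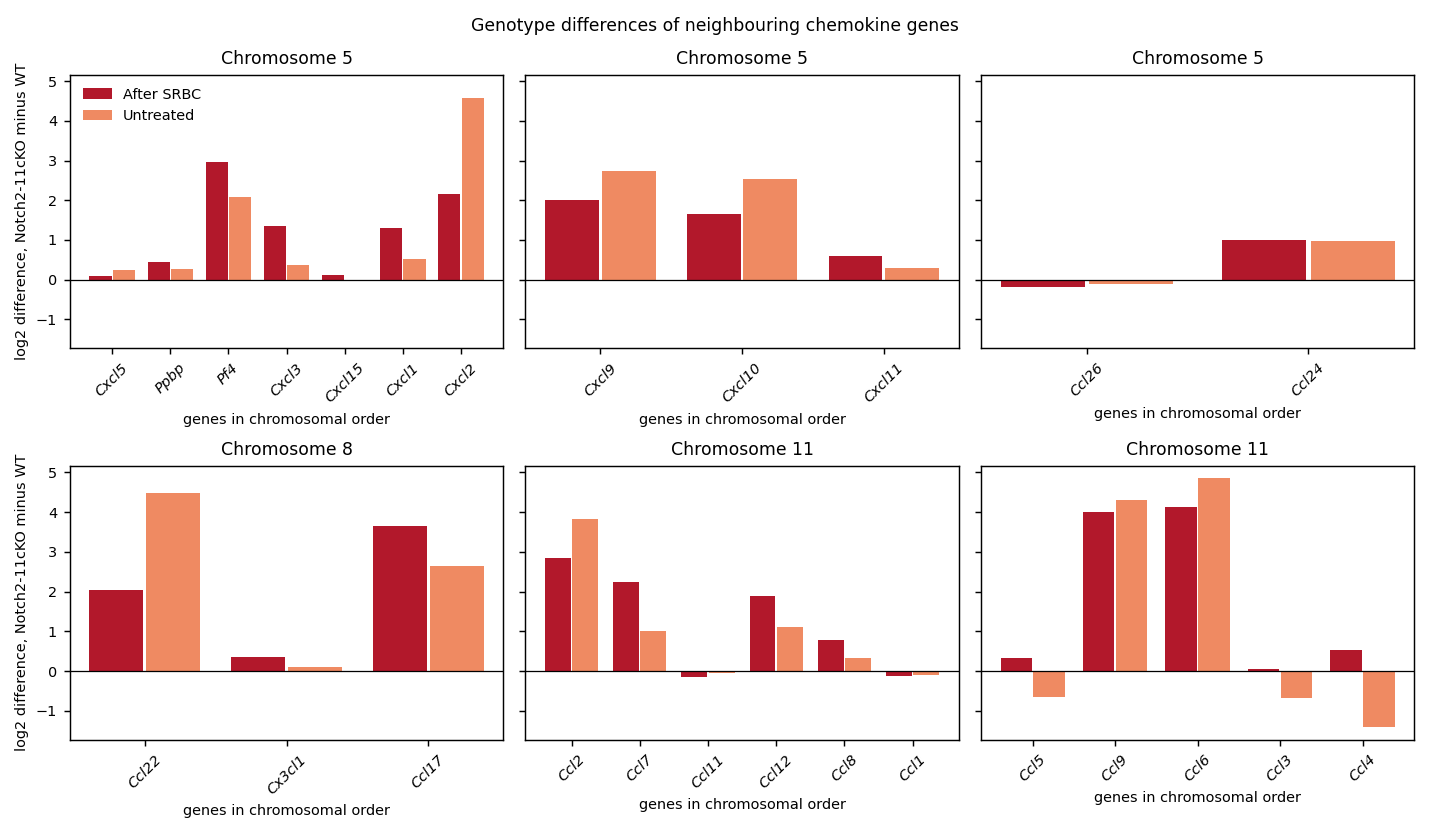
Genotype differences, as the log2 difference of Notch2-11cKO minus WT on the y axis, of the 26 ligands in 6 genomic groups, in chromosomal order within each panel, after SRBC and in untreated mice; bars are the fitted differences. In the panel of Ccl22, Cx3cl1 and Ccl17 the middle gene is at 0.35 after SRBC and 0.11 untreated, between bars of 2.04 or more.

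The remaining ligands varied little. Of the 36 members 19 passed in no comparison, and those not yet described kept within narrow ranges over the 10 arrays. Cxcl12, the CXCR4 ligand of stromal niches, ranged from 4.32 to 4.83, and Ccl19, a CCR7 ligand, from 5.55 to 6.50. Ccl19 was read by 5 probe sets and Ccl25, the CCR9 ligand, by 2, of which the brightest was used. Ccl25 ranged from 4.12 to 5.14, Ccl1 from 4.33 to 4.85, Ccl11 from 4.34 to 4.76, Ccl26 from 4.0 to 4.45 and Ccl28 from 3.45 to 3.83. Cxcl14 ranged from 4.42 to 4.87, Cxcl15 from 2.32 to 2.69 and Cxcl17 from 5.04 to 5.70. By mean level, 15 of the 36 ligands were not above the median of all genes, so a difference in them may not be detectable on these arrays.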

How the data were processed

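Spleens were digested, CD11c+ cells enriched and cDC2 sorted, per the labels' protocols. The deposited values are linear intensity for 28853 probe sets, already normalized between arrays by the authors; the method, and the genome build of the array, are not given in the sources used here. Values were log2 transformed. Gene names came from GEO's platform annotation: 21789 probe sets had 1 symbol, 1621 several and 5443 none, and the brightest probe set was taken for each of 19938 genes, with no filter on dim genes. A limma 3.58.1 fit in R 4.3.3 (lmFit, contrasts, trended eBayes; degrees of freedom 6 residual, 5.25 prior) gave 5 two-sided comparisons, adjusted over all genes by Benjamini-Hochberg and tested on simulated data. The labels do not state whether replicates are separate mice; p-values thus measure only the spread between these samples, which may be technical. Precision is limited by having 2 or 3 arrays a group.

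Every ligand is accounted for, those past an adjusted p of 0.05 with all values. The 4 others with the smallest unadjusted p, and sole ligands of a receptor, are given too. The members, gene lists and rule were chosen with earlier results of these data known. Alternatives were the probe set rule, a filter on dim genes, normalization, a pseudocount, the variance model, array weights, the replicate block, a covariate and leaving out arrays.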

Additional observations from a re-analysis of the deposited data

How the results depend on the processing

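Of 31 calls of a ligand in a comparison, 24 passed under every alternative and 0 reversed; those lost are given with the result, besides Ccl24 untreated (log2 difference 0.97) and Ccl8 after SRBC (0.78) under a minimum of 2-fold. Counts of ligands called were 5 for the response in WT, 1 for that in Notch2-11cKO, 11 for genotype untreated, 14 for genotype after SRBC and 0 for the interaction. With array weights they were 9 for the WT response, 6 for the Notch2-11cKO response and 3 for the interaction, beside 1886, 267 and 63 genes of all 19938. With the immediate-early covariate they were 2 for the WT response, 0 for the Notch2-11cKO response and 1 for the interaction, beside 196, 7 and 14 genes. In that fit genotype untreated gained Ccl4, Ccl12, Cxcl10 and Xcl1, beside 1430 genes. Genotype after SRBC gained Cxcl3, Cxcl10, Cxcl11 and Ppbp, beside 1569 genes. Leaving out WT SRBC replicate 1 and Notch2-11cKO SRBC replicate 3 together gave 11 for the WT response, 7 for the Notch2-11cKO response, 18 for genotype untreated (14 higher, 4 lower), 16 for genotype after SRBC (15 higher, Xcl1 lower) and 7 for the interaction, beside 2300, 398, 1996, 2364 and 604 genes against 756, 61, 1019, 1061 and 4 with all arrays. The Notch2-11cKO response had 0 with every probe set tested by its own ID, with quantile normalization and with only the groups compared, beside 30, 55 and 23 genes. Among genes above the median level it had 2, beside 76 of 9969 genes. Genotype untreated had 17 (13 higher, 4 lower) with only the groups compared, beside 1966 genes. Leaving out 1 array gave 2 to 6 for the WT response, 0 to 3 for the Notch2-11cKO response, 10 to 15 for genotype untreated, 14 to 15 for genotype after SRBC and 0 to 2 for the interaction. Where this left 1 array in a group, it was assumed to vary like the other groups. Counts over all genes moved as well. Leaving out 1 SRBC array gave 387 to 1331 genes for the WT response and 11 to 183 for the Notch2-11cKO response. It gave 889 to 1390 for genotype untreated, 649 to 1256 for genotype after SRBC and 3 to 44 for the interaction. Leaving out 1 untreated array gave fewer genes for genotype untreated, and leaving out 1 WT untreated array fewer for the WT response. Deviations of same-numbered SRBC arrays correlated at 0.375, -0.171 and 0.324. In both of these groups 1 array stood apart, so the correlations cannot tell whether the replicate numbers pair the samples. With the replicate block the counts were 5 for the WT response, 1 for the Notch2-11cKO response (Ccl7, with Ccl3 lost at adjusted p = 0.0754), 14 for genotype untreated, 16 for genotype after SRBC and 0 for the interaction. In the same order, 715, 50, 1175, 1319 and 6 of all genes passed in that fit. Causes of these shifts were not tested. Dim ligands are limited by signal over background, which was not measured.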

Other observations

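Of the ligand family, 6 further symbols were read only by 7 probe sets that list several genes, so no value was given to any 1 of them. The 4 probe sets shared by the Ccl21 genes, whose products are CCR7 ligands, had log2 intensities from 4.95 to 5.48 over the 10 arrays. The 3 shared by Ccl27a and Ccl27b, whose products act on CCR10, had 5.12 to 6.09.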
